A study of Mus musculus with 24 samples.

Results

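A set of 10 genes that mark the fibroblasts of the mouse lung was followed across a diet and an ozone exposure. Its members were the rows of the deposited count table that carried the gene symbols Dpt, Pi16, Dcn, Lum, Tcf21, Npnt, Wnt2, Inmt, Fgf10 and Pdgfra, so 10 of 26253 genes, and all 10 were found and passed the filter on low counts. The first 4 mark adventitial fibroblasts, which sheathe airways and vessels, and the other 6 mark alveolar fibroblasts, which lie in the walls of the air sacs. The libraries were made from total RNA of whole mouse lung, with 6 in each of 4 groups and 24 in all. The groups were a diet rich in docosahexaenoic acid (DHA), an omega-3 fatty acid, followed by ozone, the DHA diet followed by filtered air, a control diet followed by ozone, and the control diet followed by filtered air. Ozone is an oxidant gas that inflames the lung, and the study's title points to a question on protection from that inflammation by DHA. Strain, age, sex, ozone dose and sampling time are not stated in the labels. Nor do they state that each library is a mouse of its own, and p-values then cover only the spread among libraries, which may be technical.

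Fibroblasts make and organise the extracellular matrix of the lung. Those around airways and vessels are rich in matrix proteins such as decorin, while those of the alveolus support the neighbouring epithelium with secreted signals, among them FGF10 and WNT2, and stay close to the alveolar type 2 cells. In whole lung these transcripts come from a minority of the cells, and fewer cells of a type and less RNA per cell cannot be told apart.

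Library totals ran from 18053493 to 26225630 counts. Control-diet air libraries 1 to 3 stood apart in the mean log2 level of 84 ribosomal protein genes, at 6.13 to 6.20 log2 CPM (CPM are counts scaled to a common library total), while control-diet air libraries 4 to 6 had 6.53 to 6.57 and the libraries of the other groups 6.28 to 6.55. For the 10 genes, comparisons that rest on the control-diet air group were also fitted without those 3 libraries. Over all genes, leaving them out took the calls for diet in air to 0 higher and 0 lower, in place of 117 and 69, and those for diet averaged over both exposures to 6 and 4, in place of 3.19% and 3.87% of the 16153 genes tested. For ozone on the control diet it gave 852 and 951, in place of 1442 and 1271. Leaving out control-diet air libraries 4 to 6 instead gave 655 higher and 896 lower for diet in air. That fit gave 1197 and 1316 for diet averaged over both exposures, and 1553 and 1412 for ozone on the control diet. The diet calls thus depended on which libraries of that group were kept, and either fit has fewer of them.

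Of the 10 genes, 3 met the threshold, a Benjamini-Hochberg adjusted p under 0.05 over all genes tested, in at least 1 comparison. Dpt encodes dermatopontin, a matrix protein that binds decorin and collagen. Wnt2 encodes a secreted WNT ligand of the distal lung mesenchyme, and Fgf10 encodes a secreted growth factor that acts on the epithelium through the receptor FGFR2. Their promoter sequences are shown because these are the genes whose RNA levels differed. Each runs 5′ to 3′ on the gene's strand from 250 bases before to 50 bases after the start site of the RefSeq annotation of GRCm38.p6, a build other than the mm39 of the counts. Dpt lay at chr1:164796413-164796712 on the plus strand, Wnt2 at chr6:18030396-18030695 on the minus strand and Fgf10 at chr13:118714449-118714748 on the plus strand. Capitals mark matches on either strand to 4 motifs, the TATA box TATAAA, the E-box CAGCTG, the GC box GGGCGG and the AP-1 site TGANTCA.
Dpt: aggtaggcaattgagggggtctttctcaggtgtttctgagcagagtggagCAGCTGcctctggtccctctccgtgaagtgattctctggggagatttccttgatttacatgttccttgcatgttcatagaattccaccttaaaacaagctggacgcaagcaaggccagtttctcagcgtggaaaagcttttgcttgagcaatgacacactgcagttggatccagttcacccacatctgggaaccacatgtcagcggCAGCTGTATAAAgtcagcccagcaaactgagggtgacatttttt
Wnt2: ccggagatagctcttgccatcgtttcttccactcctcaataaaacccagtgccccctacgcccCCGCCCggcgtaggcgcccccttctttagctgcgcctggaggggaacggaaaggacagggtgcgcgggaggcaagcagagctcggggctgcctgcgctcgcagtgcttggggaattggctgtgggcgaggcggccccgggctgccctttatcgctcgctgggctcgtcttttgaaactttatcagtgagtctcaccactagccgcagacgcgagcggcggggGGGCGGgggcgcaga
Fgf10: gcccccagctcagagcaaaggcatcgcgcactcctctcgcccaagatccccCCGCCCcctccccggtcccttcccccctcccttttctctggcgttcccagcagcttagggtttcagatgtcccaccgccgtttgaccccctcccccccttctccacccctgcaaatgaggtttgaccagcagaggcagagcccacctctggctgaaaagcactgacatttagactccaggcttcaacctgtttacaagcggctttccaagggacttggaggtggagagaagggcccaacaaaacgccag
In the Dpt promoter both the TATA box and the E-box were found. In one place they stood side by side, beginning 7 (E-box) and 13 (TATA box) bases after the annotated start site. The Wnt2 and Fgf10 promoters held the GC box and neither of those motifs. Among all 32851 promoters of this length, 13.6% held the TATA box, 16.3% the E-box, 35.7% the GC box and 7.81% the AP-1 site, which matched 0 of the 9 promoters listed for 8 of the 10 genes. Base composition differed, with 48.7% G and C in the Dpt window, 65.7% in Wnt2 and 60.7% in Fgf10, against a median of 52.7% over all promoters. A match is a run of letters and was not tested as a binding site.

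The 10 genes spanned a wide range of levels. Set per kilobase of exon (CPM divided by the exon length), Inmt, which encodes an N-methyltransferase of indole amines, was highest at 1362 ± 188 (SD, n = 24 libraries). Npnt, which encodes the matrix protein nephronectin, had 103 ± 9.20 and Dpt 89.1 ± 15.7 CPM per kilobase, and their ranges overlapped. Tcf21, a transcription factor of the lung mesenchyme, had 39.3 ± 5.17 and Dcn, which encodes the collagen-binding proteoglycan decorin, had 34.7 ± 4.16, also overlapping. Pdgfra, the receptor for PDGF-A, followed at 15.1 ± 1.90. Wnt2 at 5.87 ± 0.903 and Pi16, peptidase inhibitor 16, at 5.32 ± 0.650 overlapped. Lowest were Fgf10 at 2.93 ± 0.439 and Lum, which encodes the proteoglycan lumican, at 2.56 ± 0.464 CPM per kilobase. At the low end, Lum had 68 to 202 counts a library and Fgf10 200 to 433, so counting error weighs more there than for Inmt at 34556 to 72258. The spread within groups was smallest for Npnt, with a coefficient of variation of 8.36%, and largest for Lum at 18.7%.

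In the mm39 coordinates of the count table, Dcn lay on chromosome 10 from 97315362 to 97354026 and Lum on the same chromosome from 97401363 to 97408566, 47.3 kb apart with 0 genes between them. Dpt lay on chromosome 1 from 164624232 to 164651843, Wnt2 on chromosome 6 from 17988939 to 18030445 and Fgf10 on chromosome 13 from 118851235 to 118929110. The spans of Dpt, Pi16 and Pdgfra overlapped small or predicted genes of the table (Rnu6 for Dpt, Gm27740 and Gm27775 for Pi16, Mir7025 for Pdgfra). No strand setting is known for the counting, so reads of overlapping genes may not be separated.

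**Figure D1:**
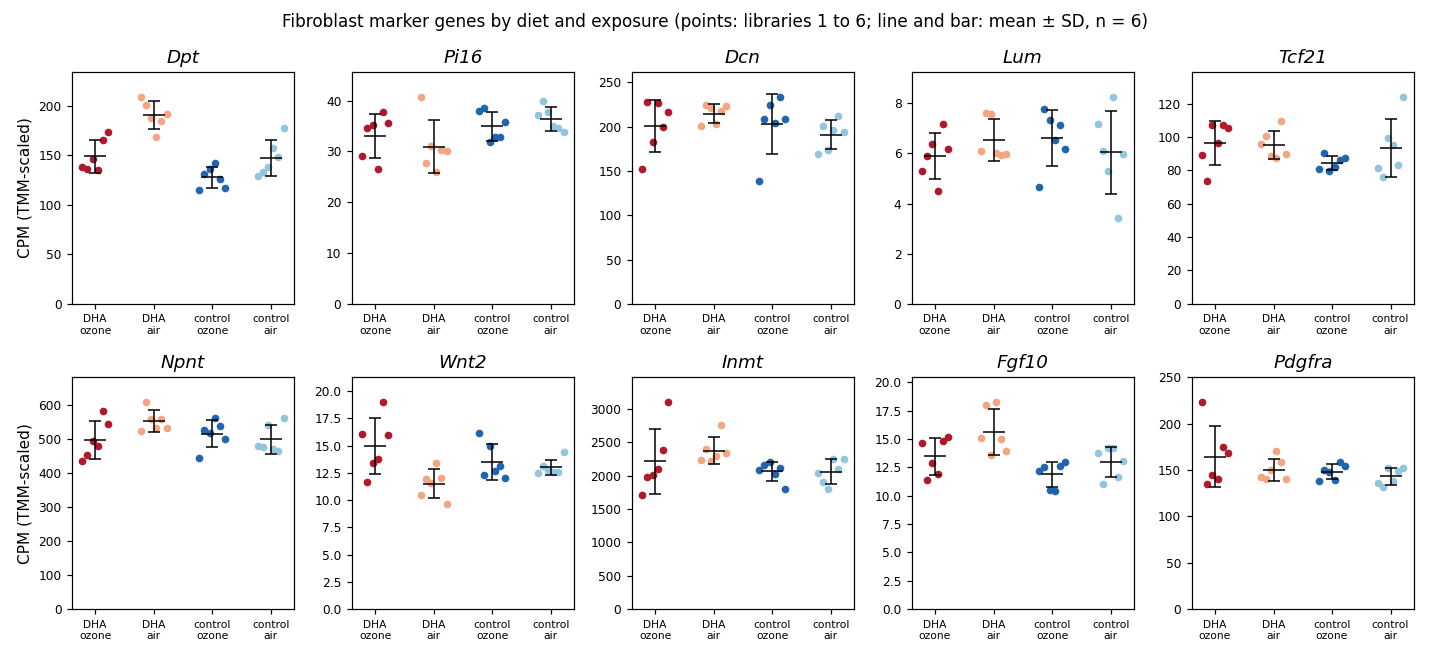
Level of each of the 10 genes in CPM (vertical axes, starting at 0, each with its own scale) in the DHA ozone, DHA air, control ozone and control air groups; points are the 6 libraries, and the line and bar the mean and SD. Dpt is highest in the DHA air group, at 168 to 209 CPM, and the libraries of the 4 groups overlap widely for most other genes.

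On the DHA diet, ozone was followed by less Dpt and more Wnt2 RNA than filtered air. Dpt had 135, 142 and 173 CPM (lowest, median and highest) in DHA-diet ozone libraries, against 168, 190 and 209 CPM in DHA-diet air libraries. The groups overlapped in 1 library each, and all 6 ozone libraries lay below the air median. The mean was 149 ± 16.4 CPM after ozone and 190 ± 14.1 CPM in air (SD, n = 6 each), a fold of 0.783 and a log2 fold change of -0.35 ± 0.076 (SE; 95% interval -0.51 to -0.20; adjusted p = 0.00133, edgeR).

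Wnt2 had 11.7, 14.9 and 19 CPM in DHA-diet ozone libraries, against 9.63, 11.7 and 13.4 CPM in DHA-diet air libraries. All ozone libraries but library 2 lay above every air library, and library 2 lay within the air range. Mean levels were 14.98 ± 2.58 and 11.5 ± 1.32 CPM, a fold of 1.31 and a log2 fold change of 0.39 ± 0.099 (95% interval 0.18 to 0.59; adjusted p = 0.00547). Both calls held under all 35 alternatives tried. These calls are 1 lower gene of 10 (10%), beside 11% of all 16153 genes tested, and 1 higher gene (10%), beside 12.7%, so the share called was near the background.

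Among the other 8 genes on the DHA diet, 0 were called, and 2, Npnt and Fgf10, had an unadjusted p under 0.05. Npnt, a ligand of the integrin formed by Itga8 and Itgb1, had 435, 486 and 584 CPM after ozone and 525, 546 and 610 CPM in air, and its log2 change was -0.15 ± 0.067 (adjusted p = 0.104). Without DHA-diet ozone library 5 its log2 change was -0.20 with adjusted p = 0.0275. Inmt had 1705, 2058 and 3107 CPM after ozone and 2225, 2317 and 2760 CPM in air, so ozone library 6 lay above all air libraries while 4 of 6 lay below their median. Its log2 change was -0.10 ± 0.097 (adjusted p = 0.482), and without that library it was -0.23 with adjusted p = 0.0359. Fgf10 came to -0.21 ± 0.092 (adjusted p = 0.0966). The matrix genes Dcn and Lum came to -0.10 ± 0.096 and -0.15 ± 0.154, and Pi16, Tcf21 and Pdgfra to 0.09 ± 0.090, 0.02 ± 0.094 and 0.13 ± 0.085, with intervals that all included 0.

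On the control diet, 0 of the 10 genes met the threshold after ozone, while 8.93% of all genes were higher and 7.87% lower. With counts scaled by library totals alone the split over all genes was 940 higher and 1737 lower, in place of 1442 and 1271. Of the 10, 1 had an unadjusted p under 0.05, and DESeq2 and limma-voom also called 0. That gene was Dpt, with 115, 129 and 142 CPM in control-diet ozone libraries, against 129, 143 and 178 CPM in control-diet air libraries. All 6 ozone libraries lay below the air median, and the log2 change was -0.20 ± 0.076 (95% interval -0.36 to -0.05; adjusted p = 0.0658). Without control-diet air libraries 1 to 3 it was -0.34 with adjusted p = 0.0127. The threshold was also met with library totals (adjusted p = 0.033) and without control-diet air library 1 (adjusted p = 0.0426). The same held without control-diet air library 2 (adjusted p = 0.0466) and without control-diet ozone library 4 (adjusted p = 0.0445). Those are 5 of 35 alternatives, over which the log2 change of Dpt ran from -0.34 to -0.07, with adjusted p up to 0.593. Wnt2 had 12, 12.9 and 16.1 CPM after ozone and 12.5, 12.7 and 14.4 CPM in air, and 3 of 6 ozone libraries lay above the air median. Its log2 change of 0.06 ± 0.099 had an interval of -0.15 to 0.26.

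Averaged over both diets, ozone lowered Dpt and Fgf10 and raised Wnt2. Dpt fell by 0.28 ± 0.054 on the log2 scale (adjusted p = 0.00021), with 11 of 12 ozone libraries below the air median, and the call held under all 34 alternatives. Wnt2 rose by 0.22 ± 0.070 (adjusted p = 0.015), with 9 of 12 ozone libraries above the air median. Its call ended without control-diet air libraries 1 to 3, where the log2 change was 0.21 with adjusted p = 0.0575. Fgf10 had 11.4, 13.7 and 15.2 CPM in DHA-diet ozone and 13.6, 15.01 and 18.3 CPM in DHA-diet air libraries, then 10.4, 12.4 and 12.9 CPM in control-diet ozone and 11, 13.4 and 14.2 CPM in control-diet air libraries. The groups overlapped on both diets. The averaged log2 change of Fgf10 was -0.17 ± 0.066 (adjusted p = 0.0449), and it met the threshold in 17 of 34 alternatives. The 2 lower genes of 10 stand beside 16.9% of all genes and the 1 higher gene beside 18.5%. With library totals the split over all genes was 2359 higher and 3313 lower, in place of 2989 and 2737. The median log2 change of the 10 was -0.03, beside -0.01 over all genes.

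Whether the ozone change differed between diets was tested with the interaction (the log2 change on the DHA diet minus that on the control diet). It called 0 of the 10 genes and 0% of all genes in either direction, with 2 of the 10 at an unadjusted p under 0.05 and 0 called by DESeq2 or limma-voom. Those were Wnt2, at 0.33 ± 0.140 (adjusted p = 0.752), and Npnt, at -0.20 ± 0.095 (adjusted p = 0.813). Without control-diet air libraries 1 to 3 they came to 0.36 (adjusted p = 0.403) and -0.19 (adjusted p = 0.521). For Dpt the difference was -0.15 ± 0.107, with an interval of -0.37 to 0.07. Dpt and Wnt2 met the threshold on the DHA diet and not on the control diet, and a difference between diets was not shown by this test.

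**Figure D2:**
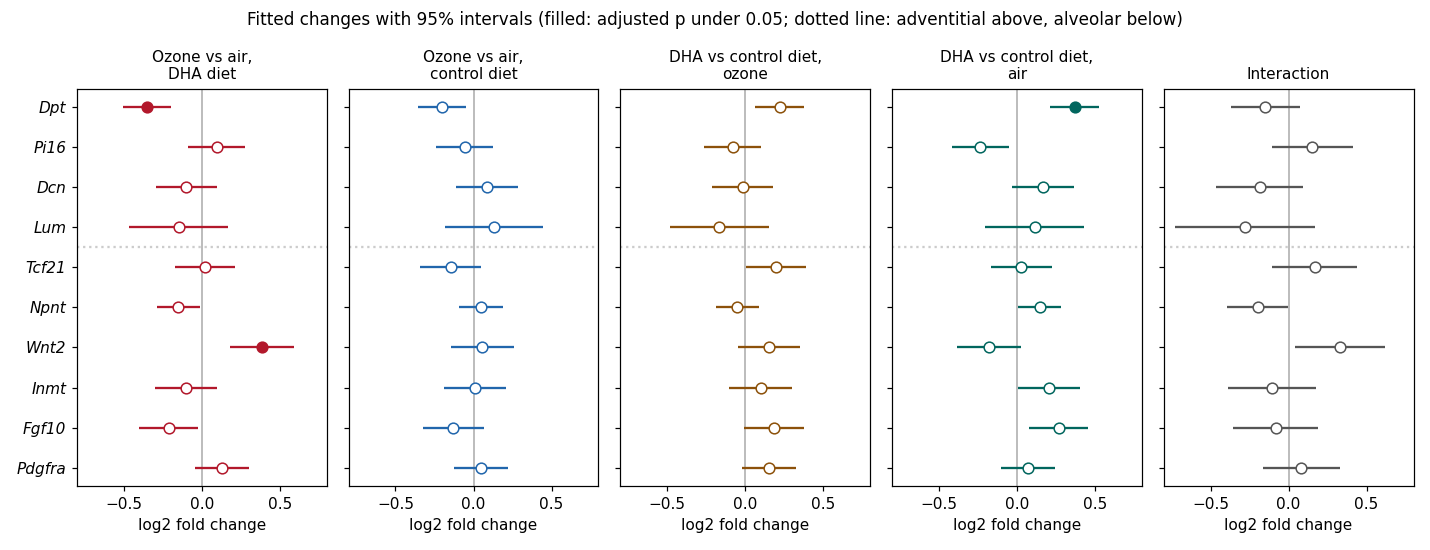
Fitted log2 fold changes (horizontal axes) of the 10 genes (rows, adventitial above and alveolar below the dotted line) in 5 comparisons, with 95% intervals; filled points had an adjusted p under 0.05. The filled points are Dpt (-0.35) and Wnt2 (0.39) for ozone on the DHA diet and Dpt (0.37) for the DHA diet in air.

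In filtered air, the DHA diet went with more Dpt than the control diet. DHA-diet air libraries had 168, 190 and 209 CPM, against 129, 143 and 178 CPM in control-diet air libraries. All DHA libraries but library 4 lay above every control library, and library 4 lay below control library 6. The log2 fold change was 0.37 ± 0.076 (95% interval 0.21 to 0.52; fold 1.29; adjusted p = 0.0156). The 1 higher gene of 10 stands beside 0.724% of all genes, and the 0 lower beside 0.427%. That background was not firm, since library totals turned the split of all genes to 72 higher and 113 lower, in place of 117 and 69. Without control-diet air libraries 4 to 6 it was 655 and 896, and 0 were called without control-diet air libraries 1 to 3. The Dpt call likewise ended without those libraries, where the log2 change was 0.23 with adjusted p = 0.242, and also without library 1 alone (adjusted p = 0.0571) or library 2 alone (adjusted p = 0.0593).

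Another 4 genes had an unadjusted p under 0.05 for diet in air and did not meet the threshold. Fgf10 came to 0.27 ± 0.093 (adjusted p = 0.131), Inmt to 0.21 ± 0.097 (adjusted p = 0.268) and Npnt to 0.15 ± 0.067 (adjusted p = 0.252), with all 6 DHA libraries above the control median for each. Pi16 pointed the other way, with 25.9, 30.1 and 40.8 CPM in DHA-diet air libraries against 33.8, 36.1 and 39.9 CPM in control-diet air libraries. All DHA libraries but library 1 lay below every control library, and library 1 lay above them all. Its log2 change was -0.23 ± 0.090 (adjusted p = 0.17), and -0.33 with adjusted p = 0.0441 without DHA-diet air library 1. Without control-diet air libraries 1 to 3 these 4 log2 changes were 0.26 for Fgf10, 0.10 for Inmt, 0.14 for Npnt and -0.16 for Pi16, and 0 met the threshold.

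After ozone, 0 of the 10 genes differed between diets at the threshold, beside 0% of all genes. Of the 10, 2 had an unadjusted p under 0.05, and DESeq2 and limma-voom called 0. Dpt had 135, 142 and 173 CPM in DHA-diet ozone and 115, 129 and 142 CPM in control-diet ozone libraries, with all 6 DHA libraries above the control median and a log2 change of 0.22 ± 0.076 (adjusted p = 0.21). Tcf21 had 73.7, 101 and 107 CPM in DHA-diet ozone and 79.3, 84.1 and 90.2 CPM in control-diet ozone libraries, and its log2 change was 0.20 ± 0.094 (adjusted p = 0.352).

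Averaged over both exposures, Dpt and Fgf10 were higher on the DHA diet. Dpt rose by 0.29 ± 0.054 on the log2 scale (fold 1.23; adjusted p = 0.00446), with 11 of 12 DHA libraries above the control median. Fgf10 rose by 0.23 ± 0.066 (fold 1.17; adjusted p = 0.0373), with 10 of 12 above it. Neither call held without control-diet air libraries 1 to 3, a fit that called 6 higher and 4 lower genes over the whole table. There Dpt came to 0.23 (adjusted p = 0.0771) and Fgf10 to 0.22 (adjusted p = 0.137). Fgf10 met the threshold in 21 of 34 alternatives. The 2 higher genes of 10 stand beside 3.19% of all genes, and the 0 lower beside 3.87%. With library totals the split of all genes was 378 higher and 702 lower, and without control-diet air libraries 4 to 6 it was 1197 and 1316. The other 8 genes ran from -0.16 ± 0.063 for Pi16 (adjusted p = 0.129) to 0.15 ± 0.069 for Inmt (adjusted p = 0.174).

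The other genes of the same cells and pathways were counted in 8 lists. For ozone averaged over both diets, their counts stand beside 18.5% higher and 16.9% lower over all genes, and nothing is read from the number of calls in a list. Of 12 other adventitial markers, ozone averaged over both diets raised 3 and lowered 1, with a median log2 change of 0.06. Ccl11, an eosinophil chemokine, rose by 0.47 ± 0.105, Adh7 by 0.34 ± 0.095 and Has1, a hyaluronan synthase, by 0.57 ± 0.189. Clec3b, which encodes tetranectin, fell by 0.34 ± 0.077. It had 96.4 ± 18.9 CPM in DHA-diet ozone and 131 ± 10.9 CPM in DHA-diet air libraries, then 102 ± 12.6 CPM in control-diet ozone and 119 ± 18 CPM in control-diet air libraries. Of 12 other alveolar markers, 1 rose (Col13a1, 0.21 ± 0.060) and 3 fell, with a median of -0.02. The amino acid transporter gene Slc7a10 fell by 0.40 ± 0.096, Fgfr4 by 0.26 ± 0.084 and Itga8, an integrin subunit, by 0.15 ± 0.045. The calls of Has1 and Itga8 ended without control-diet air libraries 1 to 3, and that of Fgfr4 ended without control-diet air libraries 4 to 6 and without DHA-diet ozone libraries 1 and 2, with log2 changes of Fgfr4 down to -0.16 over the alternatives. On each diet, Has1 came to 0.06 ± 0.263 on the DHA diet and 1.09 ± 0.272 on the control diet, with an interaction of -1.03 ± 0.378 (adjusted p = 0.664). Adh7 came to 0.25 ± 0.134 on the DHA diet (adjusted p = 0.174) and 0.42 ± 0.134 on the control diet (adjusted p = 0.0316).

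Dcn and Lum belong to the small leucine-rich proteoglycans, which bind collagen. Of the 10 other members tested, 3 fell after ozone averaged over both diets and 0 rose, with a median of -0.13. Ecm2 fell by 0.42 ± 0.092, Ogn by 0.23 ± 0.064 and Aspn by 0.21 ± 0.083, the last losing its call in 22 of 34 alternatives. These 3 were called lower on the DHA diet (median of the list -0.21), beside 11% of all genes. On the control diet 0 were called (median -0.03), beside 7.87% lower. There Ecm2 came to -0.33 ± 0.131, Ogn to -0.13 ± 0.091 and Aspn to -0.03 ± 0.118. The interaction called 0 of the 10, beside 0% of all genes. Averages over both diets are given next. Dcn and Lum themselves came to -0.01 ± 0.068 and -0.01 ± 0.109. Kera had 0 counts in all libraries and Epyc 2 counts, and neither was tested.

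Among 12 genes of FGF10 signalling, ozone raised 2 and lowered 0. Etv4, a transcription factor gene induced by FGF signals, rose by 1.26 ± 0.217, to 1.90 ± 0.894 CPM in DHA-diet ozone against 0.742 ± 0.230 CPM in DHA-diet air, and 1.44 ± 0.268 CPM in control-diet ozone against 0.635 ± 0.294 CPM in control-diet air libraries. Dusp6, a phosphatase of the same pathway, rose by 0.19 ± 0.063, a call that ended without control-diet air libraries 1 to 3. The receptor gene Fgfr2 had a log2 change of 0.09 ± 0.038 and did not pass the test. On the DHA diet 1 gene, Etv4, was called higher, beside 12.7% of all genes. On the control diet 4 were, Fgfr2, Spry2, Etv4 and Etv5, beside 8.93%. Without control-diet air libraries 1 to 3 the control-diet call of Spry2 ended (adjusted p = 0.157) and the others held. A difference between diets was not shown, since the interaction called 0 of the 12. Its adjusted p was 0.85 for Fgfr2, 0.731 for Spry2 and 0.166 for Etv5.

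Among 16 genes of WNT signalling, 5 fell and 0 rose after ozone averaged over both diets, beside 16.9% and 18.5% of all genes, with a median of -0.10. On the DHA diet 4 fell (median -0.17), beside 11% of all genes. On the control diet 1, Axin2, fell (median -0.03), beside 7.87%. The interaction called 0 of the 16, beside 0% of all genes. Averaged over both diets, the log2 change of Wnt2 was 0.22. Axin2, a feedback target of the pathway, fell by 0.28 ± 0.068, to 27.7 ± 3.23 CPM in DHA-diet ozone against 33.3 ± 2.94 CPM in DHA-diet air, and 24.8 ± 3.66 CPM in control-diet ozone against 30.3 ± 4.26 CPM in control-diet air libraries. The ligand Wnt4 fell by 0.22 ± 0.055, the receptor Fzd4 by 0.20 ± 0.070, the ligand Wnt5a by 0.16 ± 0.063 and the co-receptor Lrp6 by 0.12 ± 0.038. Wnt5a lost its call in 19 of 34 alternatives and came to -0.02 ± 0.089 on the control diet. The calls of Fzd4 and Lrp6 ended without control-diet air libraries 1 to 3. Of 6 PDGF genes, Pdgfa, a ligand of the receptor made by Pdgfra, fell by 0.18 ± 0.050 and Pdgfd by 0.22 ± 0.067, and the call of Pdgfd ended without control-diet air libraries 4 to 6. Of 7 partners of nephronectin, 1, Itga8, was called. It was also called lower on the DHA diet and came to -0.01 ± 0.064 on the control diet, with an interaction of -0.27 ± 0.090 (adjusted p = 0.658).

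Of 11 tested genes of activated fibroblasts, 4 rose and 1 fell after ozone, with a median of 0.14. Tnc, which encodes tenascin C, rose by 1.44 ± 0.166, to 28.9 ± 15.8 CPM in DHA-diet ozone against 7.91 ± 0.970 CPM in DHA-diet air, and 17.2 ± 3.83 CPM in control-diet ozone against 8.48 ± 0.850 CPM in control-diet air libraries. Fst, the activin antagonist follistatin, rose by 1.07 ± 0.185, Col1a1 by 0.20 ± 0.066 and Ltbp2 by 0.14 ± 0.053, while Postn, which encodes periostin, fell by 0.26 ± 0.053. The call of Ltbp2 was lost in 20 of 34 alternatives.

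**Figure D3:**
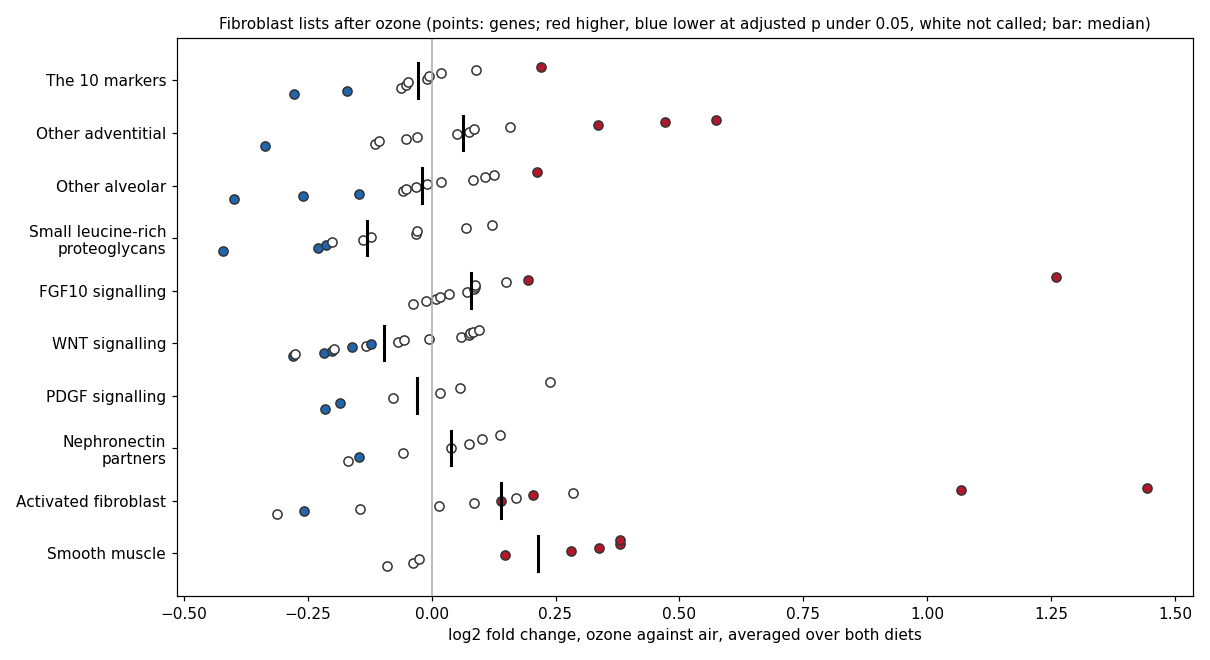
Fitted log2 fold change for ozone against air averaged over both diets (horizontal axis) of each gene (points) in the 10 markers, 8 related lists and the smooth muscle list (rows); red and blue points had an adjusted p under 0.05, white points did not, and bars are medians. The WNT list holds 5 blue and 0 red points, whereas Tnc (1.44) and Etv4 (1.26, a gene of low level) lie far to the right.

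For diet averaged over both exposures, where 3.19% of all genes were higher and 3.87% lower, the called genes of these lists were Cygb (0.19 ± 0.045) among adventitial markers, Adh1 (0.21 ± 0.039) and Col13a1 (0.22 ± 0.060) among alveolar markers, and Bgn, which encodes biglycan, at 0.20 ± 0.041, all higher on the DHA diet. In the FGF10 list Fgf7, a relative of Fgf10 that acts on the same receptor, rose by 0.27 ± 0.055, to 23.3 ± 2.77 CPM in DHA-diet ozone against 19.8 ± 1.68 CPM in control-diet ozone, and 24.5 ± 1.81 CPM in DHA-diet air against 19.9 ± 1.94 CPM in control-diet air libraries. Fgfr1 (0.10 ± 0.027) and Etv5 (0.14 ± 0.043) also passed the test. The averaged value of Etv5 joined -0.08 ± 0.060 after ozone and 0.37 ± 0.061 in air, with an interaction of -0.44 ± 0.086 (adjusted p = 0.166), and its call was lost in 16 of 34 alternatives. Nkd1 (0.27 ± 0.049), Itgb1 (0.13 ± 0.030), Ltbp2 (0.26 ± 0.053) and Postn (0.21 ± 0.053) rose, and Chad and Wnt11 fell by 0.37 ± 0.096 and 0.21 ± 0.065. Wnt11 lost its call in 19 of 34 alternatives. Each of these calls ended without control-diet air libraries 1 to 3.

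Some lists of markers of other cells also differed between these groups, and others had few calls. For ozone averaged over both diets, 0 of 8 endothelial genes were higher and 1 lower. Of 8 leukocyte genes 1 was higher and 0 lower, and of 8 pericyte genes 0 and 2. These stand beside 18.5% higher and 16.9% lower over all genes. Of 8 smooth muscle genes, 5 rose after ozone on the DHA diet (median 0.38), beside 12.7% of all genes. The summed level of the 8 ran from 888 to 1006 CPM in DHA-diet ozone against 632 to 774 CPM in DHA-diet air libraries. On the control diet the sums were 812 to 899 CPM after ozone and 664 to 1002 CPM in air. There 1 gene, Tagln, was higher and 1, Smtn, lower, beside 8.93% and 7.87% of all genes. Both calls ended without control-diet air libraries 1 to 3 (adjusted p = 0.161 and 0.289). The interaction called 0 of the 8 smooth muscle genes, beside 0% of all genes, with 0.378 as the smallest adjusted p (Acta2 and Des). Alveolar type 2 markers were higher after ozone in 5 of 8 and type 1 markers in 4 of 8 genes averaged over both diets. All 8 cell cycle genes rose (median 1.22), beside 18.5% higher over all genes. Lower after ozone, beside 16.9% of all genes, were 2 of 8 cardiac muscle genes and 2 of 8 adipocyte genes. The calls of the cardiac genes Myh6 and Ryr2 were lost in 9 and 13 of 34 alternatives. Of the adipocyte genes, the call of Pck1 was lost in 6 of 34 alternatives and that of Plin4 in 0. On the control diet the adipocyte median was -0.61, and cardiac sums ran from 1164 to 1938 CPM in control-diet ozone against 1648 to 2776 CPM in control-diet air libraries. Without control-diet air libraries 1 to 3, the control-diet log2 change went from -0.61 to -0.14 for Myh6 (adjusted p = 0.619). For Ryr2 it went from -0.56 to -0.05 (adjusted p = 0.86), and for Pck1 from -1.52 to -0.81 (adjusted p = 0.338). Plin4 went from -0.87 to -0.63 and kept its call (adjusted p = 0.0327). For diet in air, 4 of 8 alveolar type 2 genes were higher and 2 of 8 smooth muscle genes lower in DHA-diet libraries, beside 0.724% and 0.427% of all genes, and all 6 calls ended without control-diet air libraries 1 to 3. The cardiac median for diet in air was -0.47, with control-diet air libraries 1 to 3 kept in. Summed adipocyte markers ran from 77.6 to 201 CPM in DHA-diet air against 134 to 245 CPM in control-diet air libraries. Mesothelial markers had 0 calls of 7 for ozone averaged over both diets, with sums of 284.5 to 1027 CPM in control-diet ozone libraries. The part of these cells in the changes of Dpt, Wnt2 and Fgf10 was not tested. The cartilage markers Acan, Col2a1, Cnmd and Col9a1 were at or near 0, with 6, 18, 21 and 1 counts over all libraries.

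Libraries of a group also varied together in some of the 10 genes. After group means were removed, Pearson's r of log2 CPM over the 24 libraries had a median of 0.334 for the 15 pairs of alveolar genes, 0.194 for the 6 adventitial pairs and 0.0652 for the 24 pairs across the types. The highest were Tcf21 with Npnt at 0.644 and Dpt with Npnt at 0.643, and Dpt also had 0.596 with Tcf21 and 0.595 with Inmt. Dpt, listed as adventitial, thus varied more with 3 alveolar genes than with Pi16, Dcn or Lum, for which its highest r was 0.310. The lowest r was that of Dcn with Wnt2, at -0.371. These points share a library and its depth, and no test was made. Of 12013 genes ranked, the 5 most like the mean of the 4 adventitial genes were Flcn (r = 0.770), Ilvbl (0.740), Fndc1 (0.739), Safb (0.727) and Clec3b (0.716). The 5 most like the mean of the 6 alveolar genes were Car2 (0.837), Nt5dc2 (0.827), Grap (0.803), Specc1l (0.794) and Ppp1r14a (0.772).

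**Figure D4:**
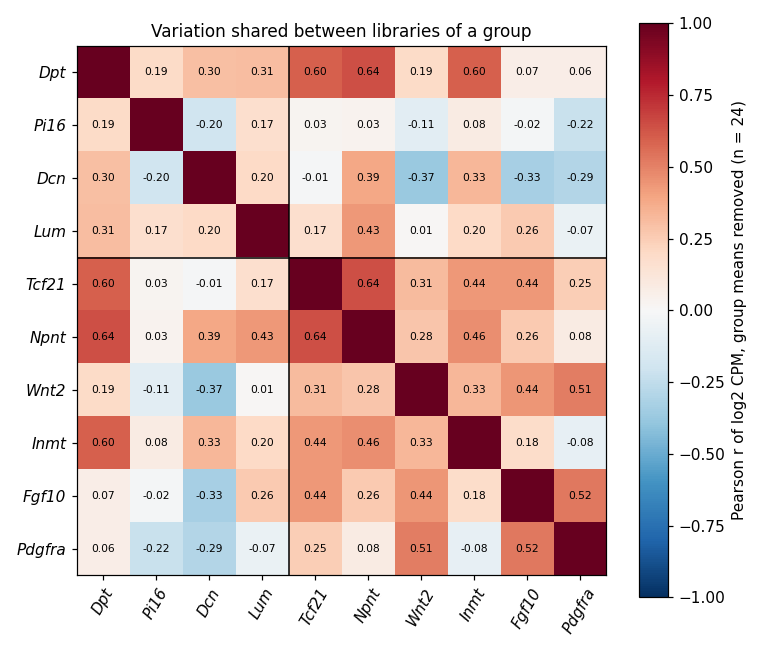
Pearson's r between each pair of the 10 genes over 24 libraries after group means were removed (colour and printed value; adventitial genes first, split from alveolar genes by black lines). Dpt has values of about 0.60 to 0.64 with Tcf21, Npnt and Inmt, above its values with the other adventitial genes.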

How the data were processed

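RNA was measured in 24 libraries of whole mouse lung, grouped by diet and exposure from the labels (6 libraries a group). Per the labels' protocols, RNA was extracted with the Qiagen RNeasy Mini Kit and libraries were prepared by Genewiz. Per the submitters' processing notes, Partek, STAR and HTSeq were used with the mm39 build, with no versions given, and the values deposited are raw, unnormalized gene counts. One gene outside those reported, Scgb1a1, was rounded to 3 significant digits in the deposited counts.

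A filter on low counts (edgeR's filterByExpr, at its minimum count of 10 and total of 15, by group) kept 16153 genes. Quasi-likelihood models of edgeR 4.0.16 in R 4.3.3 were fitted to TMM-scaled counts, with a mean for each group and 20 residual degrees of freedom. Ozone was set against air within each diet and over both, the DHA against the control diet within each exposure and over both, and their interaction was the last of 7 comparisons. Calls used a Benjamini-Hochberg adjusted p under 0.05 over all genes tested. Standard errors were taken from each log2 change and the square root of its F value. CPM used TMM-scaled library sizes, and log2 CPM a prior count of 2. Fitted folds differ slightly from ratios of mean CPM, and comparisons that share a group are not independent of each other. Exon lengths for levels per kilobase came from GENCODE M21, an annotation of another build.

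The 10 members and the lists were chosen with earlier results of these data known, so no list was given a test of its own. Named list genes were up to 4 with the smallest p for ozone and 2 for diet, both averaged, in each list. Wnt5a, Etv5 and the calls that complete a count were named after their values were seen, as were the diet and group values beside them. Same-numbered libraries correlated at -0.0233 on average once group means were taken out, so the main fit has no pairing. The edgeR fit was tried on simulated counts with known folds, for ozone on the DHA diet alone. The other comparisons, DESeq2, limma-voom and the uneven control-diet air libraries were not covered by that simulation. Alternatives were RLE scaling, library totals, no filter, a minimum of 1 CPM in 6 libraries, DESeq2 1.42.0, limma-voom (limma 3.58.1) with quality weights, a replicate block, a fit of the compared groups alone, an adjusted p under 0.01, and libraries left out singly or as control-diet air 1 to 3, control-diet air 4 to 6 and DHA-diet ozone 1 and 2. Alternatives counted beside a gene leave out the stricter threshold. Figures and tables used Python 3.11.15, pandas 2.3.3 and matplotlib 3.10.9.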

Additional observations from a re-analysis of the deposited data

Results flagged for a closer look

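Of 40 sets of 6 libraries (10 genes in 4 groups), 4 held a library set far from the others by the ratio of its gap to the group's range, with 0.625 as the critical value. Chance alone gives about 1 such set in 20. Pi16 had 40.8 CPM in DHA-diet air library 1, while the other libraries of that group had 25.9 to 31.0 CPM. Dcn had 138 CPM in control-diet ozone library 1, against 204 to 234 CPM in the others. Wnt2 had 14.4 CPM in control-diet air library 6, against 12.5 to 13.2 CPM in the others. Inmt had 2760 CPM in DHA-diet air library 5, against 2225 to 2408 CPM in the others.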

How the results depend on the processing

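Of the 10 genes' log2 changes under the alternatives, 2420 kept their call or, where uncalled, stayed so within 1 standard error. Another 39 lost the threshold, 10 gained it, 21 uncalled values moved further, and 0 called values changed sign. Most of these values had no call to lose, so the 2420 do not measure how firm the calls were. All 39 losses fell on Dpt, Wnt2 and Fgf10. Fgf10 kept its call in 17 of 34 alternatives for ozone averaged over both diets and in 21 of 34 for diet averaged over both exposures. For ozone on the control diet, 1 gene was called lower with library totals and without control-diet air libraries 1 to 3, in place of 0. For ozone averaged over both diets, 0 were called higher at an adjusted p under 0.01 and without control-diet air libraries 1 to 3, in place of 1. In the same comparison 1 was called lower, in place of 2, at that threshold, with no filter, with the replicate block, without control-diet air libraries 1 to 3 or 4 to 6, and without DHA-diet ozone libraries 1 and 2. For diet in air, 0 were called higher at the stricter threshold and without control-diet air libraries 1 to 3, in place of 1. For diet averaged over both exposures, 1 was called higher at the stricter threshold and with the replicate block, and 0 without control-diet air libraries 1 to 3, in place of 2. The cause of these changes was not tested. With each library left out in turn, the count called lower ranged from 0 to 1 for ozone on the control diet, 1 to 2 for ozone on the DHA diet and 1 to 2 for ozone averaged. For diet in air, 0 to 1 were called higher and 0 to 1 lower, and for diet averaged 1 to 2 higher and 0 to 1 lower. The replicate block changed no other count of the 10 genes, and of the 24 libraries 0 correlated best with a library that had their number. Library totals also moved the split of all genes called for ozone averaged over both diets to 2359 higher and 3313 lower, against 2989 and 2737. Counts of 68 to 202 for Lum limit what can be seen for that gene.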
